A study of Mus musculus with 6 samples.

Results

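Cd200, Slamf1, Pvr, Cd48, Icam1 and Lgals9 encode cell surface or secreted molecules with which a dendritic cell holds on to, or restrains, the cells it meets, and which belong neither to the B7 nor to the TNF family. They were chosen by gene symbol in the platform annotation. All 6 were in the deposited table, each with 1 probe set, among 12780 genes that could be compared. Gene expression was measured on 1-colour Affymetrix arrays in migratory cDC1. These type 1 conventional dendritic cells are specialised in showing antigen from dead or infected cells to CD8 T cells. There were 3 arrays of anti-CD40 stimulated cells and 3 arrays of unstimulated cells. Cells of both groups came from the lymph nodes that drain the skin of C57BL/6 wild-type mice. They were sorted for XCR1, high MHC class II, intermediate CD11c and CD40, and against B220, CD326 and Sirpa. Sorting on CD40 was thus shared by both groups. CD4 T cells license dendritic cells through this receptor, and an anti-CD40 antibody takes the place of the T cell's ligand. The sources used here do not give the dose, duration and route of the stimulation or the age of the mice. The labels call the samples biological replicates without naming separate mice, so every p-value rests on the spread among these 6 samples, part of which may be technical.

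These molecules act by binding a partner on another cell. CD200 binds an inhibitory receptor of myeloid cells. SLAMF1 binds another SLAMF1 molecule on the opposite cell and signals through the adaptor SAP, whereas CD48, of the same family, is anchored in the membrane by a lipid and binds CD244 and, in the mouse, CD2. PVR, also called CD155, is a nectin-like molecule that is shared by the activating receptor CD226 and by TIGIT and CD96. ICAM-1 is the ligand of the integrins LFA-1 and Mac-1 and steadies the contact between a dendritic cell and a T cell. Galectin-9, the product of Lgals9, binds sugar chains and is a ligand of TIM-3, a receptor that restrains T cells. Icam1 is a textbook target of NF-kB, the pathway that CD40 engages.

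Promoters, from 250 bases before to 50 bases after the annotated start, were matched for 5 of the 6 genes in RefSeq (GRCm38.p6). The promoters of Cd200 and Slamf1 are shown because these genes separated the groups, and those of Icam1 and Lgals9 because they held motifs. They lie at chr16:45409004-45409303, minus strand, at chr1:171766882-171767181, plus strand, at chr9:21015690-21015989, plus strand and at chr11:78984875-78985174, minus strand. Capitals mark motif matches, and each sequence reads 5′ to 3′ in the direction of the gene.
Cd200: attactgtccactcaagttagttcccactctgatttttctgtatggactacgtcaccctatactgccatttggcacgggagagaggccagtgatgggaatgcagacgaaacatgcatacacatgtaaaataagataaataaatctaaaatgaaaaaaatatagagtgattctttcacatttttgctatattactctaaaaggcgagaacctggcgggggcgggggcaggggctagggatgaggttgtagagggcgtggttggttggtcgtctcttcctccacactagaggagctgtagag
Slamf1: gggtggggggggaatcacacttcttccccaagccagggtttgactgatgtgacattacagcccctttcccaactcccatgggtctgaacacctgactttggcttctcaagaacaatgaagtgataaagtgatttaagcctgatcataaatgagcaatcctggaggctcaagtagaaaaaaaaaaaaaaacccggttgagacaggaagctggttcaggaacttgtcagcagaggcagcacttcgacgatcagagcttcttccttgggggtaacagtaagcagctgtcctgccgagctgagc
Icam1: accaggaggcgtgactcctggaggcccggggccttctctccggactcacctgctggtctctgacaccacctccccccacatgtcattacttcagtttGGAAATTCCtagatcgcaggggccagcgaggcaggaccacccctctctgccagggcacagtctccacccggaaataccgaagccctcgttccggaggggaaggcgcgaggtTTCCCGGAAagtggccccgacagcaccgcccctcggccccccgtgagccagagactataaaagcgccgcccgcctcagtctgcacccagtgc
Lgals9: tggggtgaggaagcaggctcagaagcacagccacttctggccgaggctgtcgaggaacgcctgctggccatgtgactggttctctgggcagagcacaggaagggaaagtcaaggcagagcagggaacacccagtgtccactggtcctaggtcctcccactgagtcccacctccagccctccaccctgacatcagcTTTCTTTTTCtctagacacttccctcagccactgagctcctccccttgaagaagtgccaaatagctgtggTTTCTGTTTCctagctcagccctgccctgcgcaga

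Both strands were searched for 4 motifs in all promoters of the table. The NF-kB consensus of 10 letters was found in 0 of the 5 promoters, and in 8.46% of all 32851 promoters. GGAAANTCC, a shorter kB motif chosen after the Icam1 promoter had been read, matched 1 time in Icam1, 153 bases before the start, and was found in 1.25% of all promoters. TTCNNNGAA, the motif of STAT factors, matched 1 time in Icam1, 42 bases before the start, and was found in 8.3% of all. The motif of interferon regulatory factors, which is GAAA repeated after a gap of any 2 bases, matched 2 times in Lgals9 on the opposite strand, once 55 bases before the start and once after it, and was found in 3.44% of all. The matches in Icam1 and in Lgals9 did not overlap each other. The Cd200, Slamf1 and Cd48 windows held none of the 4 motifs. A match is a description of letters, and binding was not measured.

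Some facts of the arrays bear on these genes. The median deposited intensity of an array lay between 51.9 and 56.2 (linear scale). The spread of log2 intensities across genes differed between arrays in both groups. The interquartile range was 2.32, 1.75 and 2.03 in stimulated replicates 1, 2 and 3, and 2.19, 1.74 and 1.92 in unstimulated replicates 1, 2 and 3. Of the 12 cDC1 markers listed, 10 were measured, and their summed intensity was 2772 to 6490 in stimulated and 1909 to 4980 in unstimulated arrays. Irf8 and Batf3, transcription factor genes of cDC1, made up most of that sum. Of the 10 markers, 4 had a positive and 6 a negative log2 difference, stimulated minus unstimulated, with a median of -0.02. The differences ran from -0.26 for Clec9a to 0.64 for Irf8. Xcr1, whose protein was sorted on, was dim, with a mean log2 intensity of 4.67 in stimulated and 4.44 in unstimulated cells. Epcam, which encodes CD326, and Sirpa, whose proteins were sorted against, were chosen after their values were seen. Epcam averaged 5.31 in stimulated and 4.74 in unstimulated cells, and Sirpa 4.83 and 4.67. For both, every stimulated array lay above every unstimulated array, beside 3.68% of all genes.

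Over the 6 genes, the mean was higher in stimulated cells for all 6, and 0 passed a limma adjusted p under 0.05 over 12780 genes. By the same rule 0.0156% of all genes were called higher and 0% lower. The median log2 difference of the 6 genes was 0.66, beside 0.005 for all genes, of which 51% had a difference above 0. At an unadjusted p under 0.05, 2 of the 6 were higher (Cd200 and Slamf1), beside 2.07% of all genes. For the same 2 genes every stimulated array lay above every unstimulated array, beside 3.68% of all genes. The genes were chosen with earlier results of these arrays known, so these counts describe them and are no test of the group. In sorted samples, a change of RNA in each cell and a change in the make-up of the sorted cells cannot be told apart.

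**Figure D1:**
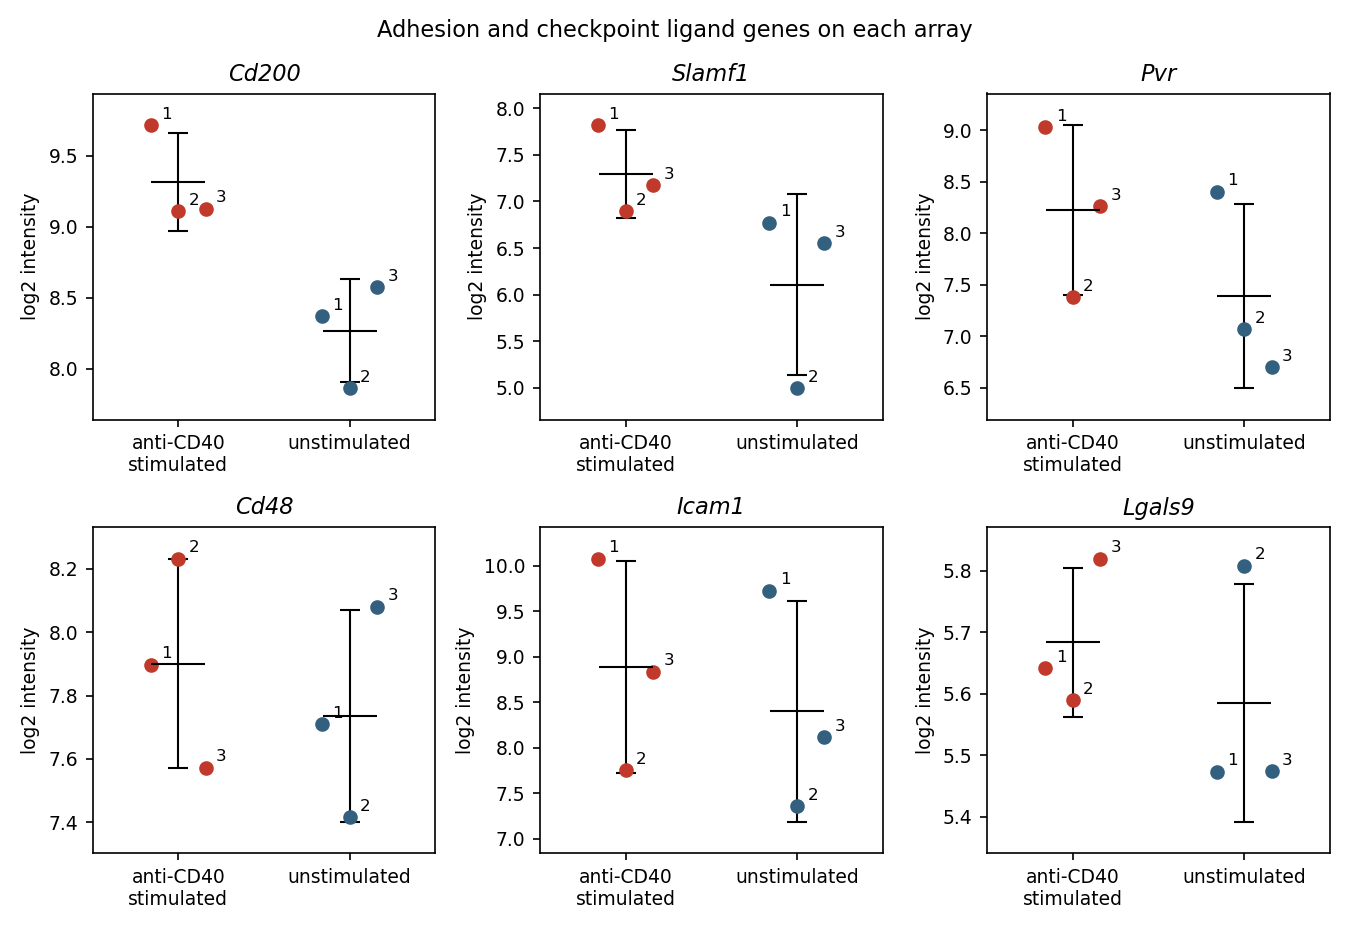
Log2 intensity of each of the 6 genes (vertical axes, each with its own scale) on the 3 stimulated arrays (red, left) and the 3 unstimulated arrays (blue, right), numbered by replicate, with the group mean and SD as bars. The groups are apart for Cd200 and Slamf1 and overlap for Pvr, Cd48, Icam1 and Lgals9.

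Cd200, the ligand of the inhibitory CD200 receptor, gave the clearest separation. Its log2 intensity was 9.72, 9.11 and 9.13 on the stimulated arrays, against 8.37, 7.86 and 8.57 on the unstimulated arrays. The lowest stimulated array was 0.54 above the highest unstimulated one. The means were 9.32 ± 0.35 in stimulated and 8.27 ± 0.37 in unstimulated cells (SD, n = 3 each), which is a 2.07-fold ratio of intensities (95% interval 1.36 to 3.16). The log2 difference of 1.05 ± 0.26 (SE) had an unadjusted p of 0.00462 and a limma adjusted p of 0.952. By p, Cd200 (probe set 10439651) stood at rank 62 of 12780 genes, and 99.3% of genes had a smaller absolute difference. The difference ran from 0.85 to 1.20 when 1 array was left out at a time. An exact permutation test of 3 arrays against 3 gives p = 0.1 for Cd200, the smallest it can give. Slamf1 has the same value, as does any gene whose groups do not overlap.

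Slamf1, the self-binding SLAM receptor, had the largest mean difference of the 6 genes and a wider spread. Its log2 intensity was 7.82, 6.89 and 7.18 on the stimulated arrays, against 6.77, 4.999 and 6.55 on the unstimulated arrays. The groups did not overlap, but the gap between them was 0.12, and unstimulated replicate 2 lay far below the other unstimulated arrays. The means were 7.30 ± 0.47 in stimulated and 6.11 ± 0.97 in unstimulated cells (SD, n = 3 each), a 2.28-fold ratio (95% interval 1.04 to 5.01). The log2 difference of 1.19 ± 0.48 (SE) had an unadjusted p of 0.0426 and a limma adjusted p of 0.99997 (probe set 10351667). Without unstimulated replicate 2 the log2 difference of Slamf1 was 0.63.

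T cells also carry CD200 and SLAMF1, so T cell markers are given beside both genes. Of 10 T cell markers 6 were measured, all 6 with a positive difference and 0 called, and the median log2 difference was 0.31. Their summed intensity was 187.0, 240.6 and 336.5 on stimulated arrays 1, 2 and 3, against 181.6, 173.4 and 264.0 on unstimulated arrays 1, 2 and 3. Among the stimulated arrays, replicate 1 had the highest Cd200 and Slamf1 and the lowest T cell marker sum. Among the unstimulated arrays, the sums had the order of Cd200 (replicate 3, then 1, then 2), and replicate 2 was the lowest in the sum, in Cd200 and in Slamf1. Most of the 6 markers were dim. Their mean log2 intensity ran from 4.43 (Cd3d) to 5.67 (Cd5) in unstimulated cells. In stimulated cells it ran from 4.87 (Cd8b1) to 5.78 (Cd5). The median of all gene means was 5.74, and background was not analysed here. The log2 differences of the CD3 chain genes, which encode parts of the T cell receptor complex, were 0.64 for Cd3d, 0.62 for Cd3g and 0.20 for Cd3e. Those of Cd8b1, Cd5 and Thy1 were 0.43, 0.10 and 0.03. Of 9 B cell markers 4 were measured, with a median log2 difference of -0.08 (2 positive, 2 negative). Of 10 endothelium and fibroblast markers 5 were measured, with a median of -0.15 (1 positive, 4 negative). The part of T cells or of these other cells in the Cd200 and Slamf1 values was not tested.

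Pvr, the nectin-like ligand of CD226, TIGIT and CD96, had a higher stimulated mean with overlapping groups. Its log2 intensity was 9.03, 7.38 and 8.26 on the stimulated arrays, against 8.41, 7.07 and 6.70 on the unstimulated arrays. Unstimulated replicate 1 exceeded stimulated replicates 2 and 3. The means were 8.22 ± 0.83 in stimulated and 7.39 ± 0.90 in unstimulated cells (SD, n = 3 each). The log2 difference of 0.83 (95% interval -0.44 to 2.11) had a limma adjusted p of 0.99997 (probe set 10560709). Leaving out 1 array moved the difference of Pvr from 0.43, without stimulated replicate 1, to 1.34, without unstimulated replicate 1. It was 1.26 without stimulated replicate 2 and 0.49 without unstimulated replicate 3.

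Icam1, the integrin ligand, varied more among arrays of the same group than between the groups. Its log2 intensity was 10.08, 7.75 and 8.84 on the stimulated arrays, against 9.73, 7.35 and 8.12 on the unstimulated arrays. The range was 2.33 within stimulated and 2.37 within unstimulated cells, against a log2 difference of the group means of 0.49 (95% interval -1.24 to 2.22, limma adjusted p = 0.99997, probe set 10583519). The means were 8.89 ± 1.17 in stimulated and 8.40 ± 1.21 in unstimulated cells (SD, n = 3 each). The order of the 6 arrays by Icam1 was the order of their interquartile ranges, from stimulated replicate 1 down to unstimulated replicate 2, which held for 1.94% of all genes. With the interquartile range of each array in the model, the difference of Icam1 was 0.11 (95% interval -0.30 to 0.52). In the same model that of Pvr was 0.58 (-0.04 to 1.20), that of Cd200 0.96 (0.50 to 1.42) and that of Slamf1 0.99 (0.29 to 1.68). Within each replicate number the stimulated array had the larger interquartile range, so this covariate can take up part of a difference between the groups. With the replicate number as a block instead, the difference of Icam1 was 0.49 (limma adjusted p = 0.323). What sets the interquartile range of an array was not tested. Without stimulated replicate 1 the difference of Icam1 was -0.10, and without unstimulated replicate 2 it was -0.03. It was 1.16 without unstimulated replicate 1 and 1.06 without stimulated replicate 2. Between arrays of the same number, the Icam1 difference was 0.35, 0.40 and 0.72 for numbers 1, 2 and 3. That of Pvr was 0.63, 0.31 and 1.56, and those of Cd200 and Slamf1 were also positive for each number. Cd48 was negative for number 3 (-0.51) and Lgals9 for number 2 (-0.22), and both were positive for the other numbers. Without both arrays numbered 1, 2 or 3 the difference of Icam1 was 0.56, 0.54 or 0.38.

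**Figure D2:**
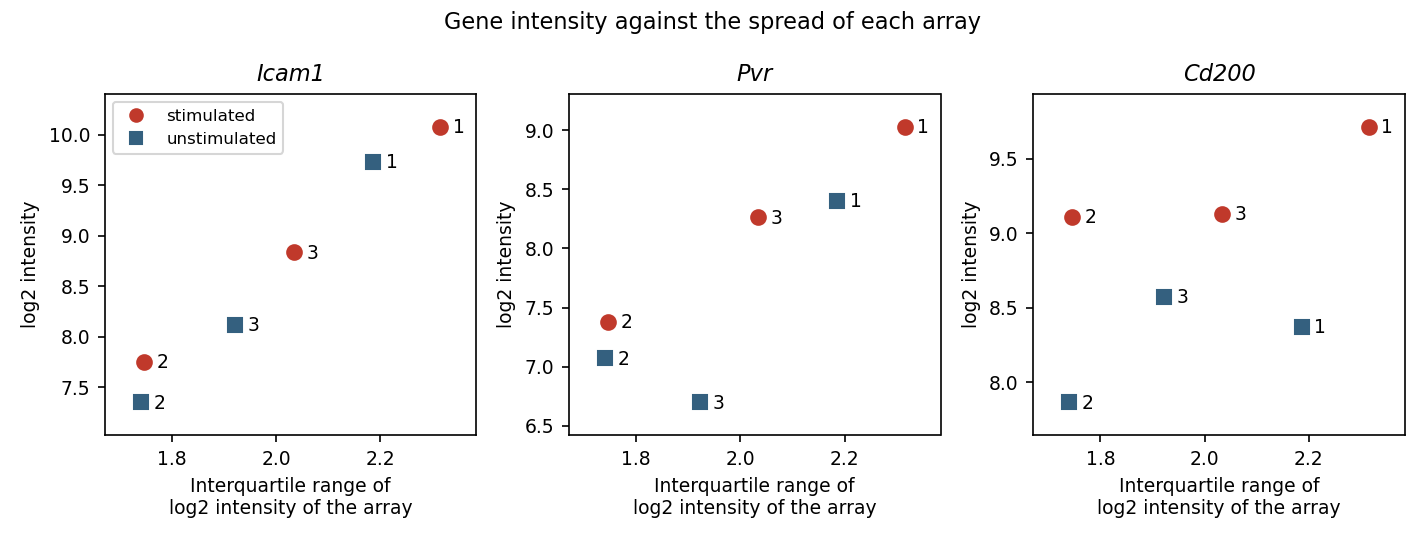
Log2 intensity of Icam1, Pvr and Cd200 (vertical axes) against the interquartile range of log2 intensity of each array (horizontal axes), with stimulated arrays as red circles and unstimulated arrays as blue squares, numbered by replicate. Icam1 follows the order of the array spreads through both groups, while Cd200 is higher on all 3 stimulated arrays at low and at high spread.

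Cd48, the lipid-anchored SLAM family member, had a small mean difference whose direction turned under some alternatives. On the log2 scale its intensity was 7.90, 8.23 and 7.57 on the stimulated arrays, against 7.71, 7.42 and 8.08 on the unstimulated arrays. The highest value was stimulated replicate 2 and the lowest unstimulated replicate 2, with the other 4 arrays mixed between them. The means were 7.90 ± 0.33 in stimulated and 7.74 ± 0.33 in unstimulated cells (SD, n = 3 each), and the log2 difference was 0.17 (95% interval -0.42 to 0.75, limma adjusted p = 0.99997, probe set 10351658). The interval leaves room for a ratio of 0.75 to 1.68. The difference was -0.28 with array weights and -0.16 without both arrays numbered 2. It was -0.000133 without stimulated replicate 2 and 0.00593 without unstimulated replicate 2.

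Lgals9, the galectin-9 gene, had the smallest difference of the 6 genes and the narrowest spread. Its log2 intensity was 5.64, 5.59 and 5.82 on the stimulated arrays, against 5.47, 5.81 and 5.47 on the unstimulated arrays. These values lie close to the median of all gene means, 5.74, and background was not analysed here. The groups overlapped through unstimulated replicate 2. The means were 5.68 ± 0.12 in stimulated and 5.59 ± 0.19 in unstimulated cells (SD, n = 3 each). The log2 difference of 0.10 (95% interval -0.31 to 0.51) bounds the ratio between 0.80 and 1.42, with a limma adjusted p of 0.99997 (probe set 10388902). Without both arrays numbered 3 the difference of Lgals9 was -0.03.

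**Figure D3:**
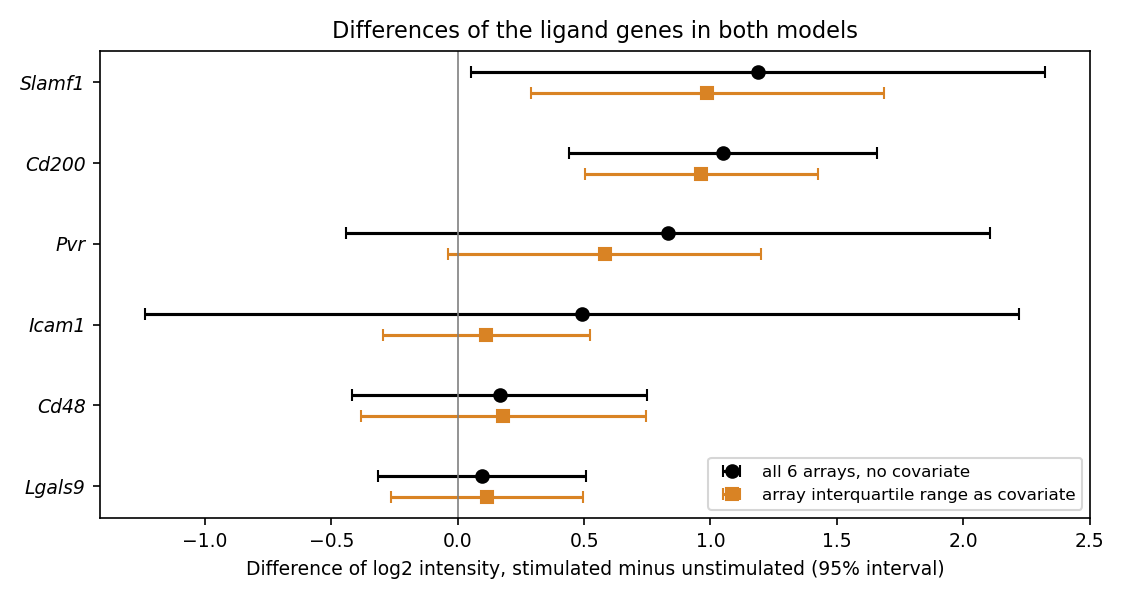
Log2 difference, stimulated minus unstimulated, with its 95% interval (horizontal axis) for the 6 genes, without a covariate (black circles) and with array interquartile range in the model (orange squares, the covariate being 1 value per array). The intervals of Slamf1 and Cd200 lie above 0 in both models, and that of Icam1 narrows around 0.11 with the covariate.

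Slamf1 and Cd48 lie close to each other on chromosome 1 in a row of SLAM family genes, in the annotation's order Cd244a, Ly9, Slamf7, Cd48, Slamf1, Cd84 and Slamf6. Of these 7 genes, 5 were tested and 0 passed. Slamf6, another self-binding receptor that signals through SAP, was the 1 gene of the row with every stimulated array below every unstimulated array. On the log2 scale its intensity was 5.55, 5.66 and 6.02 on the stimulated arrays, against 6.16, 6.50 and 6.79 on the unstimulated arrays. Its log2 difference was -0.74 ± 0.23 (SE, limma adjusted p = 0.99997), beside 3.46% of all genes whose groups separated in that direction. Slamf7, a self-binding receptor that uses another adaptor, differed by 0.29 and Ly9 by 0.19, both with overlapping groups. The difference between the responses of Slamf1 and Slamf6 was not tested.

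**Figure D4:**
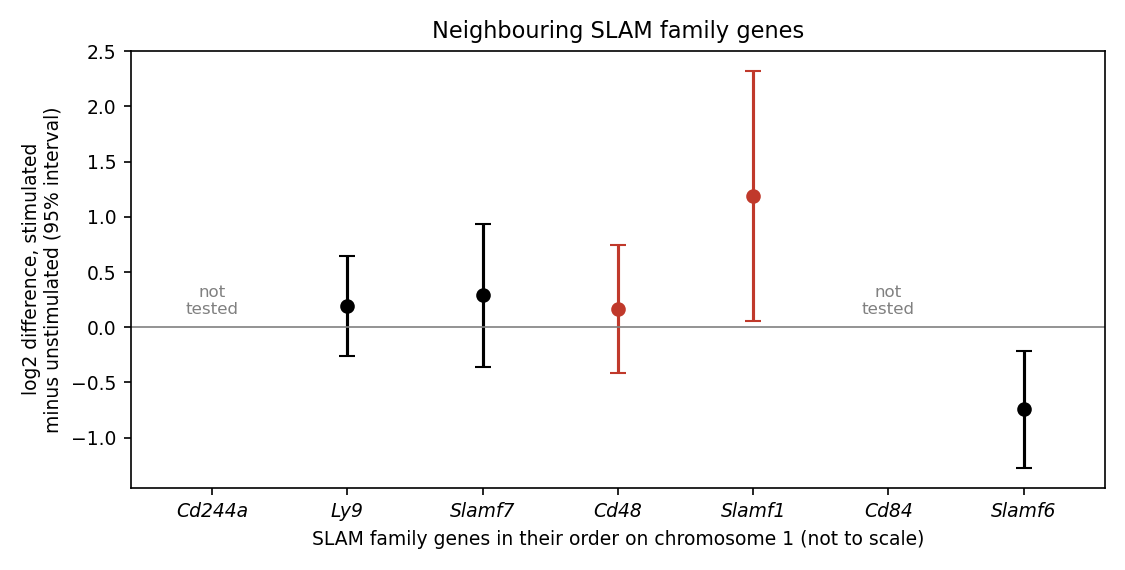
Log2 difference, stimulated minus unstimulated, with its 95% interval (vertical axis) for SLAM family genes in their order along chromosome 1 (horizontal axis, not to scale), with Cd48 and Slamf1 in red and the others in black. The interval lies above 0 for Slamf1, below 0 for Slamf6 and across 0 for Ly9, Slamf7 and Cd48, and Cd244a and Cd84 were not tested.

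Partners and relatives of the 6 genes were taken from 6 lists with 75 entries, of which 51 were measured. Of these 51 genes, 0 were called in either direction, 29 had a positive and 22 a negative difference, and the median was 0.04. At an unadjusted p under 0.05, 4 of the 51 were higher and 2 lower, beside 2.07% and 1.42% of all genes. For 4 of the 51 every stimulated array was above every unstimulated one, and for 4 it was below, beside 3.68% and 3.46% of all genes. The 5 receptors of CD200 were not analysed here.

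Of the SLAM family and its SAP adaptors, 5 of 11 were measured, with a median of 0.19 (4 positive, 1 negative). Apart from Slamf7, Slamf6 and Ly9, the brightest was Slamf8, at 0.19. Cd2, the mouse receptor of CD48, was chosen after its values were seen and was dim. It averaged a log2 intensity of 4.77 in stimulated and 4.60 in unstimulated cells.

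Of nectins, nectin-like molecules and their receptors, 10 of 12 were measured, with a median of -0.09 (3 positive, 7 negative). Nectin1, an adhesion molecule of cell junctions, differed by -0.60 with overlapping groups. Cadm1, a nectin-like molecule that marks cDC1 and binds CRTAM on T cells, was at 7.99, 7.64 and 7.73 on the stimulated arrays, against 7.33, 7.53 and 7.42 on the unstimulated arrays. The groups of Cadm1 did not overlap, and the log2 difference was 0.36 (limma adjusted p = 0.99997). Crtam, that receptor of CADM1, differed by -0.24 with overlapping groups. Nectin2, which like Pvr binds CD226, differed by -0.38. Of the receptors of PVR, Tigit differed by -0.01 and Cd96 by 0.74, and both were dim. The groups overlapped for Nectin2 and Tigit, while every stimulated array of Cd96 lay above every unstimulated array. Nectin2 and Cd96 were chosen after their values were seen.

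Of the ICAM family, integrins and their linkers, 14 of 19 were measured, with a median of 0.04 (9 positive, 5 negative). Itga4, an integrin chain that binds VCAM-1, differed by -0.37 and Itgb1, its partner chain, by -0.15. Msn and Rdx encode moesin and radixin, which tie membrane proteins such as ICAM-1 to actin, and differed by 0.40 and -0.37. The groups overlapped for Msn, while every stimulated array of Rdx lay below every unstimulated array. Ezr, the related ezrin gene, was chosen after its values were seen and differed by 0.77, with every stimulated array above every unstimulated array. Itgal and Itgb2, the chains of LFA-1, were dim in both groups and differed by -0.07 and 0.06.

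Of galectins and their ligands, 9 of 12 were measured, with a median of 0.13 (7 positive, 2 negative) and 0 of 9 with separated groups. Lgals1, which encodes galectin-1, differed by 0.26 and Lgals3, which encodes galectin-3, by -0.48. P4hb, a disulfide isomerase that galectin-9 binds at the cell surface, differed by 0.32, and Lgals8 by -0.37.

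Of other adhesion and checkpoint genes outside B7 and TNF, 13 of 16 were measured, with a median of -0.002 (6 positive, 7 negative). Sema7a, a lipid-anchored semaphorin that binds an integrin, was at 11.46, 9.28 and 10.45 on the stimulated arrays, against 9.62, 8.52 and 8.78 on the unstimulated arrays. Stimulated replicate 2 lay below unstimulated replicate 1, and the log2 difference was 1.42 ± 0.55 (SE, limma adjusted p = 0.99997). Cd24a, a mucin-like adhesion molecule, separated downward with a log2 difference of -0.48 ± 0.16 (SE). Cd47, the signal that restrains phagocytes through SIRPA, differed by -0.04 and Clec2d by 0.28.

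The genes whose log2 intensities most resembled those of each ligand gene over the 6 arrays were sought among the 6221 genes (6222 for Lgals9) brighter than the median of all genes. With 6 arrays, high values of Pearson's r are common among so many genes, and r describes these arrays alone. For Cd200 they were Fn1 (r = 0.989), which encodes fibronectin, Ubxn4 (0.976) and Dennd3 (0.971). For Slamf1 they were Mical3 (0.993), Max (0.993) and Mfsd6 (0.992). For Pvr they were Rnf6 (0.993), Irf1 (0.992), an interferon regulatory factor, and Ppm1g (0.992). For Icam1 they were Tnrc6b (0.999), Plekhb2 (0.998) and Trpc4ap (0.998), and 372 candidates had an r over 0.95 with it, against 18 for Cd200 and 2 for Cd48. Cd48 was closest to Rabl3 (0.973), Zcchc9 (0.961) and Atraid (0.949), and Lgals9 to Yeats4 (0.970), Fam118b (0.957) and Tyms (0.948).

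**Figure D5:**
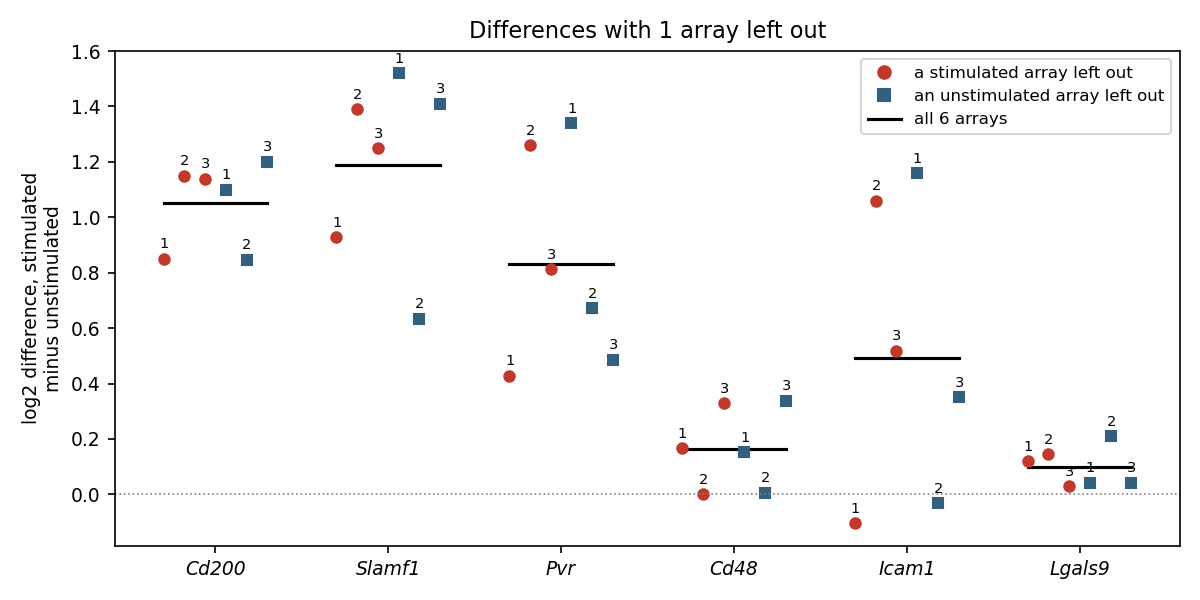
Log2 difference, stimulated minus unstimulated (vertical axis), of each gene when 1 stimulated array (red circles) or 1 unstimulated array (blue squares) was left out, with the number of the replicate left out beside each point and the value of all 6 arrays as a black line. Cd200, Slamf1 and Pvr stay above 0 in all 6 cases, and Icam1 falls below 0 in 2 of them.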

How the data were processed

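RNA of migratory cDC1 was measured on 6 arrays, 3 anti-CD40 stimulated and 3 unstimulated. The authors' software was Affymetrix Expression Console with RMA (per the submitters' processing notes), which corrects background, normalises arrays by quantiles and summarises probes. The sources used here give neither version nor settings. The interquartile range of the arrays still ran from 1.74 to 2.32, and whether all 6 were normalised together was not tested. The deposited values of 17551 probe sets are intensities on a linear scale from 6.97 to 13701, and log2 was taken before any test. In every probe set the higher group geometric mean was at least 20.001, so dimmer probe sets were not analysed here.

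Gene names came from the platform annotation, in which 13963 probe sets had 1 symbol, 970 several and 2618 none. Where a gene had several probe sets the brightest was used, which left 12780 genes. The 2 groups were fitted in R 4.3.3 using limma 3.58.1 (lmFit, eBayes, two-sided, no covariates), with Benjamini-Hochberg adjustment over all genes and a threshold of 0.05. The precision is limited by the number of arrays.

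The 6 genes, the lists of partners and markers and the alternatives were chosen with earlier results of these data known. The text names the 6 genes, the 4 brightest measured genes of each partner list (of whose genes 0 were called), and the 3 genes most like each of the 6 (Pearson's r over 6 arrays, among genes brighter than the median of all genes, predicted genes left out). Other named genes are cDC1 and T cell markers or row neighbours, or were picked once their values had been seen. The alternatives changed the variance model, removed dim genes, quantile normalised the deposited values, centred arrays on medians, weighted arrays or blocked on the replicate number. Others took the array interquartile range as a covariate, left out each array in turn, treated probe sets differently or set the threshold at 0.1. Leaving out both arrays of 1 number was added after the data were seen. Plots were made in Python 3.11.15 with matplotlib 3.10.9.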

Additional observations from a re-analysis of the deposited data

How the results depend on the processing

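The count of the 6 ligand genes past the threshold was 0 under each of the 19 alternatives fitted, and so was that of the partner genes, some of which the filter on dim genes removed. Cd200, Slamf1 and Pvr kept a positive difference in all 19, with ranges of 0.72 to 1.30, 0.63 to 1.52 and 0.43 to 1.40. Some of the 19 could not change the difference itself, so its sign there is no check. These were the variance model, the filter on dim genes, the replicate block, the treatments of probe sets and the threshold of 0.1. With array weights the difference of Cd48 was -0.28, while that of Cd200 was 0.72 and that of Pvr 1.40. Without both arrays numbered 2, Cd48 was at -0.16, and without both numbered 3 Lgals9 was at -0.0257. Icam1 was at 0.56, 0.54 and 0.38 without both arrays numbered 1, 2 and 3. Leaving out 1 array gave -0.000133 to 0.34 for Cd48 and -0.10 to 1.16 for Icam1, where the values below 0 were -0.000133 without stimulated replicate 2 for Cd48, and -0.104 without stimulated replicate 1 and -0.0317 without unstimulated replicate 2 for Icam1. The cause of these changes was not tested, beyond the smaller number of arrays.

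With the replicate number as a block, the limma adjusted p was 0.111 for Cd200, 0.136 for Slamf1, 0.279 for Pvr and 0.323 for Icam1, with 0 of the 6 genes past the threshold, and over all genes 30 were higher and 8 lower, beside 2 and 0 without it. Deviations from the group means correlated across genes between same-numbered arrays with r = 0.727, 0.594 and 0.061 for numbers 1, 2 and 3. The labels do not say whether equal numbers mark paired samples, so the main fit had no block. Its p-values and intervals therefore leave out this likeness of same-numbered arrays. Every array but unstimulated replicate 3, which correlated best with stimulated replicate 2 (r = 0.194), correlated best with its own number.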
